A study of Mus musculus with 298 samples.

Results

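Genes best known from sensory neurons were read in individual cells of thoracic sympathetic ganglia from mice. The 8 genes were Tac1, Adcyap1, Slc17a6, Scn10a, Runx1, P2rx3, Pou4f1 and Prdm12, taken by name from 16892 rows of a table of counts, and each was read by cell identity and cell by cell. The 298 cells came from Wnt1-Cre mice with the R26R-Tomato reporter, a cross that labels descendants of the neural crest and that all groups shared. The labels name 8 identities in 213 cells: 4 Glutamatergic cells, the cholinergic identities Ach1 (8 cells) and Ach2 (8 cells), and the noradrenergic identities Noradrenergic1 (10 cells), Noradrenergic2 (39), Noradrenergic4 (18), Noradrenergic5 (23) and Noradrenergic3, the most numerous. A further 85 cells are Unclassified. Mice of both sexes were collected between postnatal days 11 and 38, and the labels name no animals, so a collection (all cells of the same sex and age, 10 in all) served as the replicate. The p-values rest on the spread left after terms for identity and collection. That spread is estimated over all identities together, so it says little about variation among the Glutamatergic cells. In the small identities a collection often holds a single cell. How identities were assigned is not given in the sources used here, and identities drawn from these same counts would make the p-values no independent evidence.

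The Glutamatergic cells came from the P31 female, P33 female and P29 male collections, with 2 cells in the last, each caught on a different chip. Their totals were 28964, 51100, 22547 and 18310 counts, against 7225 to 81589 over all cells, with a median of 33099. Intervals given here are exact and cover counting error only. Levels are counts per 10000 of a library, a library being the summed counts of an identity within a collection, and they are not scaled by gene length, so no gene's level is set against another's.

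Primary sensory neurons carry signals from skin and organs to the spinal cord and release glutamate, which vesicular transporters such as that encoded by Slc17a6 load into vesicles. Those that detect painful heat or touch, the nociceptors, also release peptides, among them substance P from Tac1, PACAP from Adcyap1 and calcitonin gene-related peptide from Calca. They use the sodium channel Nav1.8, encoded by Scn10a, to fire, and the ATP-gated channel subunit encoded by P2rx3 to sense ATP. Pou4f1 encodes Brn3a, a homeodomain factor of developing sensory ganglia, Prdm12 encodes a factor needed for nociceptor development, and Runx1 steers nociceptors toward subtypes. Postganglionic sympathetic neurons mostly release noradrenaline, and a minority release acetylcholine. Tac1 and Adcyap1 are also used by other neurons, and Runx1 is a factor of blood cells, macrophages included.

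Upstream sequences are shown for Slc17a6 and Prdm12, whose counts all came from the Glutamatergic cells, and for Adcyap1, the peptide gene that was also counted in Ach1 cells. RefSeq promoter windows on GRCm38.p6, from 250 bases before to 50 bases after a start, were found for 7 of the 8 genes, and P2rx3 had none. The bases before the start are printed in the direction of transcription, up to any annotated exon of the gene. For Adcyap1, shown by the second of its 2 windows, this leaves 99 bases, which end short of that window's start. Slc17a6 is shown by the first of its 2 windows.
Slc17a6, chr7:51621580-51621829, plus strand: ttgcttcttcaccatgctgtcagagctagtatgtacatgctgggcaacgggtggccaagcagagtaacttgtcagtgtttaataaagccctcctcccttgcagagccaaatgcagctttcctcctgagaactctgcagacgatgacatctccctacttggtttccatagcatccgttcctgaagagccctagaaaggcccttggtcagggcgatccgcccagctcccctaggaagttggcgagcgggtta
Prdm12, chr2:31639787-31640036, plus strand: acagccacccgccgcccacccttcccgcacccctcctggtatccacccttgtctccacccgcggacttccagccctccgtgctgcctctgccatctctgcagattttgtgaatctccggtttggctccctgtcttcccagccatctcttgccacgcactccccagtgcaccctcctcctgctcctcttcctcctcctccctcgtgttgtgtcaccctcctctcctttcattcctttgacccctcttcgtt
Adcyap1, chr17:93198918-93199016, plus strand: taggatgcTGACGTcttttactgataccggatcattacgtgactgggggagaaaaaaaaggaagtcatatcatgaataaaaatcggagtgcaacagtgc
Capitals mark TGACGT, the core of a cAMP response element, which was looked for on both strands together with TGTGGT, the core that Runx proteins bind. TGACGT was in 7.51% of 32851 windows in the RefSeq table and, among the windows of these genes, in those of Adcyap1 alone, at 1 place that 2 overlapping windows share. TGTGGT was in 16.8% of windows, at 2 places in the first Runx1 window and in no window of the other genes. A match describes letters in a window and not a bound site.

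All 8 genes had counts in Glutamatergic cells, and each of these 4 cells held counts of 6 to 8 of them. Outside the Glutamatergic cells, 0 of 294 cells held more than 2 of the 8 genes, 12 held 2, 64 held 1 and 218 held none. The summed level of the 8 genes in a cell ran from 28.8 to 86.9 counts per 10000 in Glutamatergic cells and reached at most 2.08 in cholinergic, 1.62 in noradrenergic and 1.46 in Unclassified cells, so the ranges did not overlap. Tac1 was the largest part of this sum, with 442 counts in Glutamatergic cells, against 80 of Adcyap1, the next. Counts of single genes could overlap with those of other cells, P2rx3, Runx1 and Scn10a among them. The 8 genes were chosen with earlier results of these data known, so this gap is no independent evidence.

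**Figure D1:**
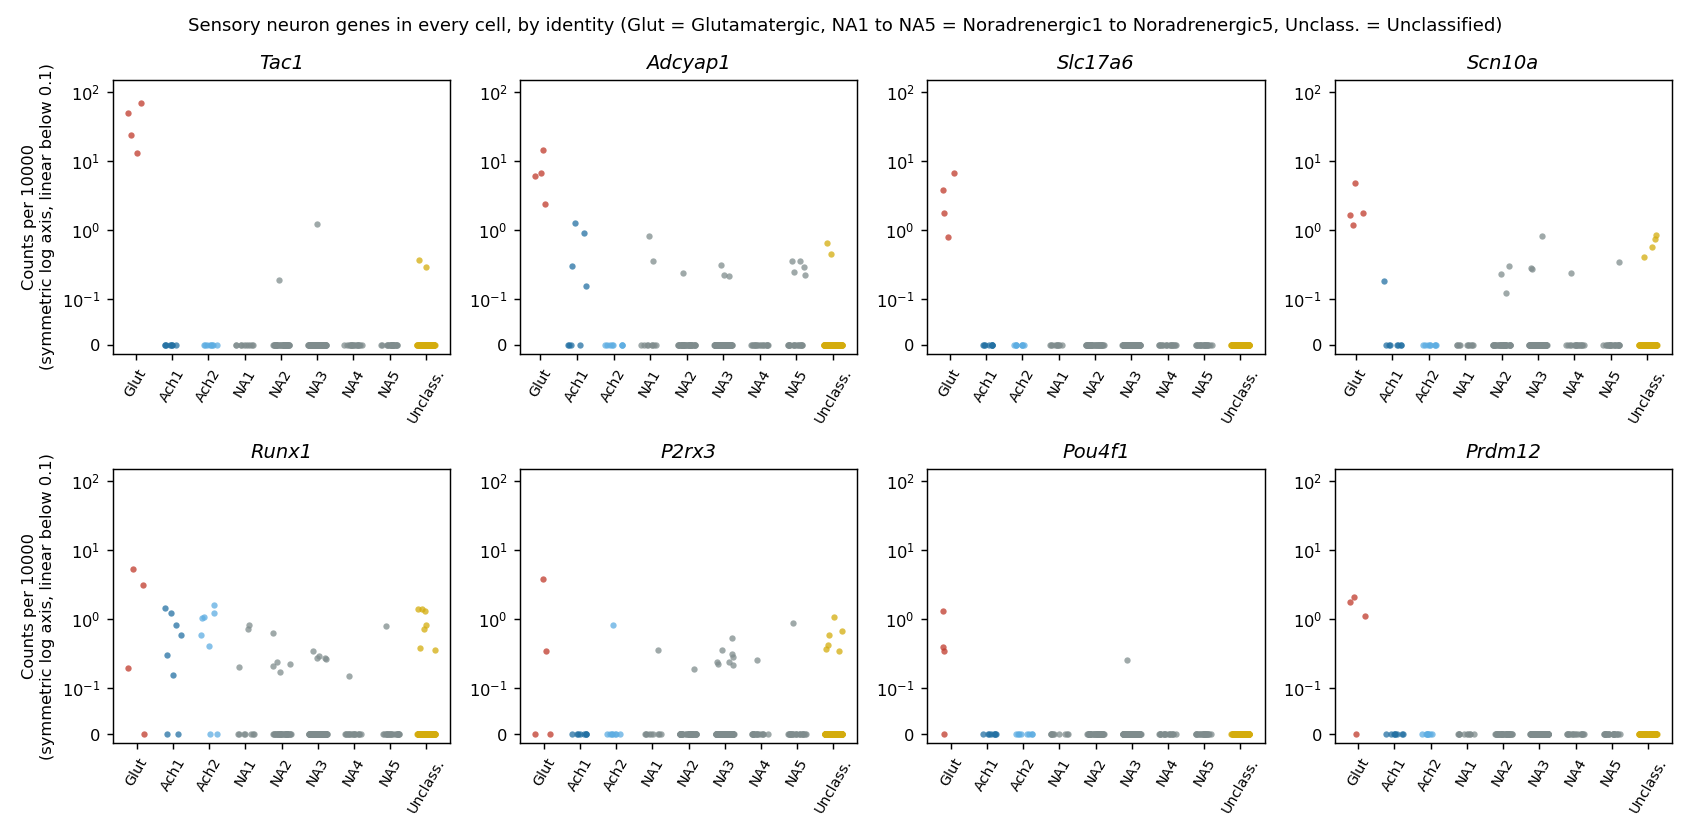
Counts per 10000 of each gene in every cell (1 point per cell, symmetric log axis that is linear below 0.1), by identity, with Glutamatergic at the left and Unclassified at the right. Slc17a6 and Prdm12 points above 0 are all Glutamatergic, whereas Runx1 also stands above 0 in 6 of 8 Ach1 and 6 of 8 Ach2 cells.

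**Figure D2:**
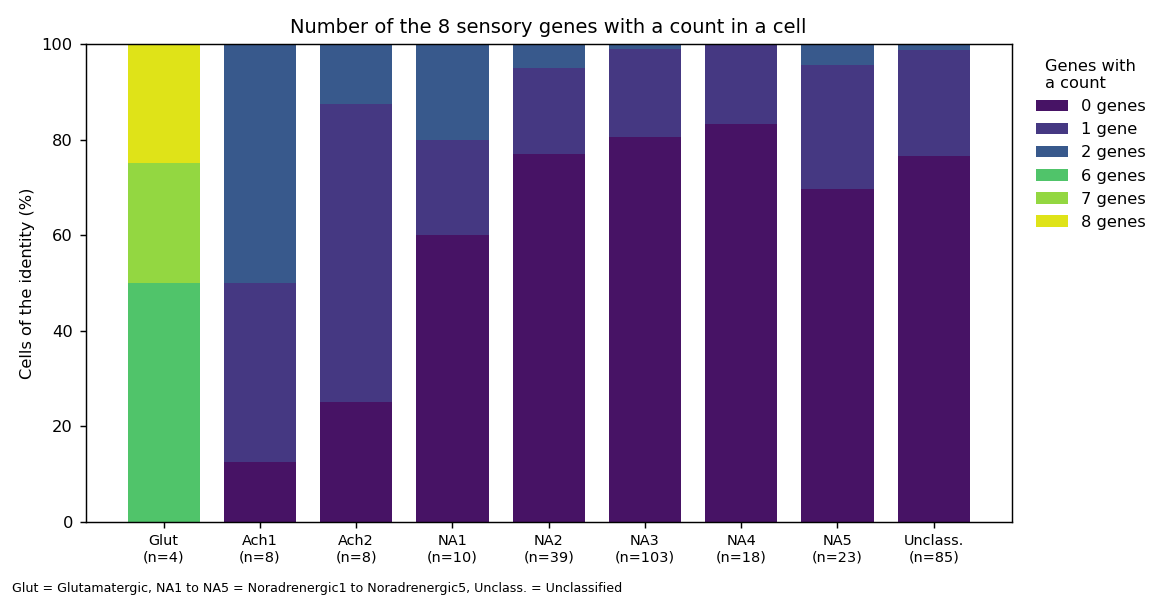
Share of cells of each identity (bars, percent of its cells, n under each bar) by how many of the 8 genes had a count. The 4 Glutamatergic cells held 6 to 8 genes, and cells of the other identities held 0 to 2.

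Of the 8 genes, 6 passed the filter on low counts (20 counts or more in total, found in 3 libraries or more), and edgeR's quasi-likelihood test called 6 of these 6 higher in Glutamatergic than in noradrenergic cells at a Benjamini-Hochberg adjusted p under 0.05. Over all 11555 genes tested, 2.63% were called in either direction and 1.62% higher. Of the 6 genes, only Adcyap1 and Runx1 would pass the filter without the Glutamatergic libraries. The other 4 entered the test through the cells in which they were high, so the 6 of 6 is no support beyond the values of each gene. The median log2 fold change over all genes tested was -0.386, and 0.022 with RLE size factors. Pou4f1 and Prdm12 did not pass the filter and were not tested in that fit. Against cholinergic cells the same 6 genes were called higher, with 1.51% of all genes called and 0.969% called higher, and the same limit from the filter holds. DESeq2 called Tac1 there, left Adcyap1, Slc17a6, Scn10a and Runx1 uncalled at adjusted p-values of 0.5272, 0.7954, 0.6768 and 0.6212, and gave P2rx3 none. With libraries of at least 2 cells, which leave 1 Glutamatergic library, Tac1 (adjusted p = 1.0), P2rx3 (0.3052) and Runx1 (0.452) were not called in edgeR. The 2 comparisons share the Glutamatergic cells, so their values are given side by side and not as separate evidence.

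Tac1 encodes the precursor of substance P and neurokinin A. The Glutamatergic cells held 142 counts of it (P31 female), 122 (P33 female), 154 and 24 (P29 male), against 0 in 16 of 16 cholinergic cells and 6 counts over 193 noradrenergic cells. All 4 Glutamatergic cells stood above every other cell, where the highest count was 5. By collection the level was 38.8 ± 13.2 counts per 10000 in Glutamatergic cells (SD, n = 3), against 0.00597 ± 0.0150 in noradrenergic cells (n = 10). The pooled level was at least 662-fold higher in Glutamatergic than in cholinergic cells, taking 3 counts over the cholinergic group as its floor. The log2 fold change of Tac1 was 12.41 against noradrenergic (SE 0.37, adjusted p = 3.668e-237 in edgeR) and 13.11 against cholinergic cells (SE 0.76, adjusted p = 1.117e-62 in edgeR). These p-values rest on a spread shared by all identities and say little about replication among 4 cells.

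Adcyap1, which encodes PACAP, was less sharply divided between identities. Its counts were 42, 12, 15 and 11 in the Glutamatergic cells, against 10 counts in 4 of 16 cholinergic cells and 13 counts in 11 of 193 noradrenergic cells. The highest count outside the Glutamatergic cells was 5, in an Ach1 cell, so the groups did not overlap in counts. The pooled level in Glutamatergic cells was 35.97-fold that of cholinergic cells (95% counting interval 18.6 to 77.9) and 374-fold that of noradrenergic cells (207 to 733). The log2 fold change of Adcyap1 was 7.30 against cholinergic (SE 0.77, adjusted p = 6.208e-18 in edgeR) and 8.14 against noradrenergic cells (SE 0.47, adjusted p = 8.189e-65 in edgeR).

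Among the other sensory peptide genes on the list, 9 of 11 in the table were tested, Tac1 and Adcyap1 included, and 6 were called higher in Glutamatergic than in noradrenergic cells, with 0 called lower and a list median log2 fold change of 8.14. Beside Tac1 and Adcyap1 these were Calca, its near copy Calcb, Cartpt (the CART peptide) and Nmb (neuromedin B). Nmb rose by 6.25 in log2 terms (SE 0.58, adjusted p = 2.916e-24 in edgeR), with 42 counts in 4 of 4 Glutamatergic cells, against 25 counts in 23 of 193 noradrenergic cells and 0 in 16 cholinergic cells. Against cholinergic cells 5 of the 9 were called higher (Adcyap1, Gal, Tac1, Nmb and Calca) and Sst lower. Cartpt stood at a log2 fold change of 0.70 there (adjusted p = 0.7974 in edgeR) and Calcb at 1.47 (adjusted p = 0.1878 in edgeR), 2 peptides that cholinergic cells also held. Reads of Calca and Calcb may be split between these near copies. The receptor list covered tachykinins and PACAP only. Tacr1, Tacr2, Tacr3 and Vipr2 had no count in the Glutamatergic cells, and none in Ach1 or Noradrenergic5 cells either. Adcyap1r1, the PACAP receptor, had 4 counts in 1 of 4 Glutamatergic cells, against 937 counts in 190 of 193 noradrenergic cells. It was the only gene of that list tested, and it fell against noradrenergic cells, at -2.19 in log2 terms (SE 0.65, adjusted p = 0.03334 in edgeR). Adcyap1r1 also fell in cholinergic against noradrenergic cells (-1.12, adjusted p = 0.005596 in edgeR). Between Glutamatergic and cholinergic cells it was not called (-1.08, SE 0.79, adjusted p = 0.6765 in edgeR).

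Slc17a6 encodes VGLUT2, which loads glutamate into vesicles. The Glutamatergic cells held 19, 4, 4 and 7 counts, in the order P31 female, P33 female and both P29 male cells, and the remaining 294 cells held none, which, taking 3 of 294 cells as the limit, allows up to 1.02% of cells with a count and sets no limit on cells that express the gene at a low level. Its log2 fold change was 8.87 against noradrenergic cells (SE 0.72, adjusted p = 2.266e-31 in edgeR) and 8.72 against cholinergic cells (SE 1.46, adjusted p = 1.379e-06 in edgeR). Having counts in only 3 libraries, Slc17a6 dropped out of the filter, and so of the test, whenever 1 of its 3 collections was left out. The other vesicular glutamate transporters, Slc17a7 and Slc17a8, had 0 counts in Glutamatergic, cholinergic and noradrenergic cells alike. Slc38a1, which takes up glutamine, stood at a log2 fold change of -1.59 against noradrenergic cells (adjusted p = 0.4003 in edgeR), so Slc17a6 was the 1 gene called of 4 tested in the list for glutamate loading and supply.

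Scn10a, the Nav1.8 sodium channel, had 14, 6, 4 and 3 counts in the Glutamatergic cells, against 1 count in 1 of 16 cholinergic cells and 10 counts in 8 of 193 noradrenergic cells. The highest count elsewhere was 3, in a Noradrenergic3 cell, equal to the lowest Glutamatergic count. The level by collection was 2.57 ± 1.98 counts per 10000 in Glutamatergic cells (SD, n = 3), against 0.0133 ± 0.0352 in cholinergic (n = 7) and 0.00657 ± 0.0113 in noradrenergic cells (n = 10). The log2 fold change of Scn10a was 6.59 against cholinergic (SE 1.22, adjusted p = 2.795e-05 in edgeR) and 7.04 against noradrenergic cells (SE 0.69, adjusted p = 3.461e-21 in edgeR). The call against cholinergic cells ended without the P29 male collection (6.53, adjusted p = 0.2458 in edgeR).

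P2rx3, the ATP-gated channel subunit, had 1 count in the P31 female Glutamatergic cell, 0 in the P33 female cell, and 0 and 7 in the P29 male cells. It thus rested on 1 cell, and the groups overlapped, with 2 counts in 1 of 16 cholinergic cells and 17 counts in 12 of 193 noradrenergic cells, up to 4 in a cell. The log2 fold change of P2rx3 was 5.16 against cholinergic (SE 1.26, adjusted p = 0.005987 in edgeR) and 5.12 against noradrenergic cells (SE 0.96, adjusted p = 2.211e-05 in edgeR). P2rx3 (chromosome 2, 84998583 to 85037462, minus strand, GRCm38) overlaps Ssrp1 on the opposite strand, which had 794 counts in the table. Whether the counting used strand is not given in the sources used here, so P2rx3 counts are uncertain.

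Of 14 nociceptor channels and receptors in the table, 6 were tested and 3 were called higher in Glutamatergic cells in both comparisons: Scn10a, P2rx3 and Scn11a, which encodes the sodium channel Nav1.9. Scn11a had 13, 4, 7 and 3 counts in the Glutamatergic cells, against 6 counts in 4 of 16 cholinergic and 22 counts in 17 of 193 noradrenergic cells. Its log2 fold change was 6.29 against noradrenergic cells (SE 0.65, adjusted p = 1.668e-19 in edgeR). Trpv1, the capsaicin receptor, was below the filter, with 10 counts in 3 of 4 Glutamatergic cells and 0 in 193 noradrenergic cells, at least 203-fold higher. Scn9a, the sodium channel Nav1.7, was common to all, at a log2 fold change of -0.03 (SE 0.33, adjusted p = 1 in edgeR), and of 10 tested sodium channel genes other than Scn10a only Scn11a was called higher and Scn3a lower (-1.99, SE 0.53, adjusted p = 0.01224 in edgeR). The other P2X subunits were tested in 2 cases, P2rx2 and P2rx4, and neither was called, at 0.45 and -0.12.

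Prdm12 and Pou4f1, the 2 factors below the filter, had few counts but nearly all of them in Glutamatergic cells. Prdm12 had 6, 0, 4 and 2 counts in the 4 cells and 0 in the remaining 294 cells, and its pooled level was at least 17.98-fold that of cholinergic and at least 243-fold that of noradrenergic cells. Pou4f1 had 1, 2, 3 and 0 counts, against 0 in cholinergic cells and 1 count in 1 Noradrenergic3 cell, a pooled level 365-fold that of noradrenergic cells with a wide counting interval (44.2 to 16770). With no filter on low counts edgeR gave Prdm12 a log2 fold change of 7.13 (adjusted p = 4.423e-07) and Pou4f1 one of 5.63 (adjusted p = 0.007312) against noradrenergic cells. Against cholinergic cells neither was called, at an edgeR adjusted p of 0.07825 for Prdm12 and 0.4426 for Pou4f1. Pou4f3, a relative of Pou4f1, had 4 counts in 3 of 4 Glutamatergic cells and 0 in 209 other named cells.

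Runx1 had 9, 1, 12 and 0 counts in the 4 Glutamatergic cells and, of the 8 genes, had the most counts outside them, 60 in 34 of 294 cells. The P31 female cell and the deeper P29 male cell held nearly all of it, at 3.11 and 5.32 counts per 10000, and the shallower P29 male cell held none. Against noradrenergic cells Runx1 rose by 5.23 in log2 terms (SE 0.62, adjusted p = 1.973e-14 in edgeR). Against cholinergic cells the log2 fold change of Runx1 was 2.14 (SE 0.62, adjusted p = 0.03667 in edgeR), higher in 2 and lower in 1 of the 3 collections that held both. This call was the least stable of the 6. It ended without the P29 male collection (3.11, adjusted p = 0.1543), the P30 female (2.01, adjusted p = 0.07356), the P31 female (1.44, adjusted p = 0.6755) or the P38 male collection (2.02, adjusted p = 0.0891), and also with no replicate block, filterByExpr, voom and DESeq2. Of 9 tested sensory lineage transcription factors, Runx1 was the only one called higher in Glutamatergic than in noradrenergic cells, and the list median was -0.766, against -0.386 over all genes. Isl1, which sensory and sympathetic neurons share, was not called, at -0.82 (adjusted p = 0.3456 in edgeR). Cbfb, the partner that Runx proteins need to bind DNA, was not called either, at 1.13 (SE 0.55, adjusted p = 0.3763 in edgeR), and Runx2 and Runx3 had 0 counts in Glutamatergic cells.

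**Figure D3:**
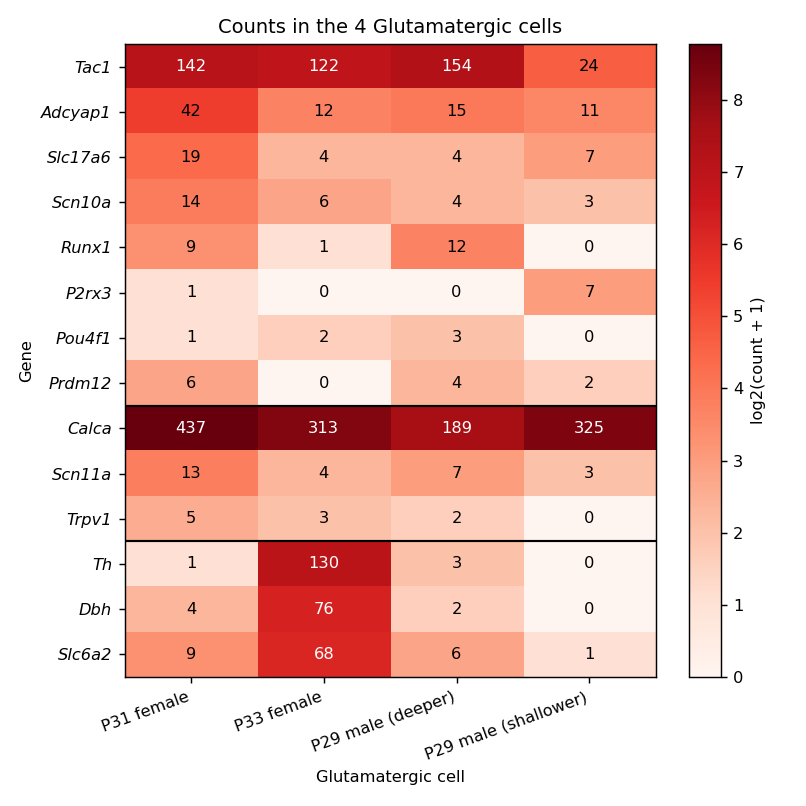
Counts (numbers, colour on a log2(count + 1) scale) in each of the 4 Glutamatergic cells, for the 8 genes (top), 3 further sensory markers (middle) and 3 noradrenergic markers (bottom). The P33 female cell held 130 counts of Th beside 122 of Tac1, while Th reached at most 3 counts in the other 3.

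The 4 Glutamatergic cells differed among themselves in the 8 genes. The P31 female cell held all 8, the deeper P29 male cell 7, and the P33 female and the shallower P29 male cell 6 each. Tac1, Adcyap1, Slc17a6 and Scn10a had counts in 4 of 4 cells (exact interval of the share 39.8% to 100.0%), Runx1, Pou4f1 and Prdm12 in 3, and P2rx3 in 2. The shallower P29 male cell, which held 7 counts of P2rx3 and 24 of Tac1, also held 58 of Cartpt, against 13 to 20 in the other cells. The P33 female cell had the lowest levels of Adcyap1, Slc17a6 and Scn10a, at 2.35, 0.783 and 1.17 counts per 10000, and no Prdm12 or P2rx3.

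That P33 female cell also held sympathetic transcripts, with 130 counts of Th, which makes the precursor of dopamine, 76 of Dbh and 68 of Slc6a2, the noradrenaline transporter. In the other 3, Th ran from 0 to 3, Dbh from 0 to 4 and Slc6a2 from 1 to 9 counts. Its total of 51100 was the largest of the 4. Capture sites were inspected by eye, per the labels' protocols, and whether this site held more than 1 cell was not tested. Without it, the 5 genes still tested were called higher in both comparisons, and Runx1 stood at a log2 fold change of 2.56 against cholinergic cells (adjusted p = 0.008334 in edgeR).

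Sensory markers and markers of other cells were read in the Glutamatergic cells. Calca had 437, 313, 189 and 325 counts, and Avil, Isl1 and Scn11a had counts in 4 of 4, though noradrenergic cells also held Avil and Isl1. The 12 macrophage and 8 endothelial genes had 0 counts in all 4. Of 5 cholinergic markers, Chat and Slc18a3, which make and load acetylcholine, were also at 0. The other 3 had few counts. Vip had 6 in the deeper P29 male cell, Slc5a7 1 in the shallower one and Sst 1 in the P33 female cell. Of 10 genes of fibroblasts and smooth muscle cells 3 had counts. Their summed level ran from 0.4435 to 4.915 with a median of 1.18, against 0 to 99.5 with a median of 0.303 in noradrenergic cells. The summed noradrenergic markers ran from 0.546 to 189 counts per 10000, against 56.3 to 363 in noradrenergic cells. Of 9 tested sympathetic lineage factors 5 were called lower than in noradrenergic cells, among them Hand2 (-3.71, SE 0.64, adjusted p = 1.583e-06 in edgeR). Of 14 genes of satellite glia and Schwann cells 12 had counts, Erbb3 and Gfap being at 0, and their summed level ran from 15.1 to 51.4 with a median of 28.5, against 0.864 to 66.7 with a median of 5.68 in noradrenergic cells. Against noradrenergic cells edgeR called 0 of 12 tested glial genes, 3 of them with an unadjusted p under 0.05, and against cholinergic cells it called Pmp22 lower, and the part of glial RNA in these comparisons was not tested. Each of the 4 cells came from a chip of its own.

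In cholinergic cells the gene that stood out among the 8 was Runx1, with 29 counts in 12 of 16 cells, against 20 counts in 15 of 193 noradrenergic cells. Of the 6 genes tested it was the only one called, beside 4.57% of all genes called between cholinergic and noradrenergic cells and 2.17% called higher. By collection, Runx1 stood in cholinergic cells at 0.729 counts per 10000 (P16 female), 1.14 (P29 male), 0.279 (P30 female), 1.44 (P30 male), 0.0982 (P31 female), 0.303 (P33 female) and 0.314 (P38 male). In noradrenergic cells it stood at 0.442 in the P30 male collection, which held 2 such cells, and at 0.0564 or less in the other 9. It was higher in cholinergic cells in 7 of the 7 collections that held both, although the ranges overlapped across collections. The mean was 0.614 ± 0.504 in cholinergic (SD, n = 7) and 0.0594 ± 0.136 in noradrenergic cells (n = 10), and the log2 fold change was 3.09 (SE 0.52, adjusted p = 2.689e-07 in edgeR). The call ended without the P29 male collection (2.12, adjusted p = 0.07858), whose 5 cholinergic cells held 14 of the 29 counts, and with libraries of at least 2 cells (2.89, adjusted p = 0.3496).

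Share of cells and depth were set side by side for Runx1. A count was found in 75% of cholinergic cells (exact interval 47.6% to 92.7%), against 7.77% of noradrenergic cells (4.42% to 12.5%). Thinned to 7000 counts per cell, the expected shares were 35.8% in cholinergic and 1.89% in noradrenergic cells. Median totals were 35669.5 in Ach1 and 28121 in Ach2, against 27729 in Noradrenergic1 to 43245 in Noradrenergic2. Between the cholinergic identities Runx1 did not pass the test, with 13 counts in 6 of 8 Ach1 cells and 16 counts in 6 of 8 Ach2 cells, a log2 fold change of -0.38 (SE 0.71, adjusted p = 0.9608 in edgeR) and a pooled ratio of 0.642 with a counting interval from 0.284 to 1.42.

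Markers of macrophages and glia were read in the same cells as Runx1. All 12 macrophage genes were at 0 in Ach1, and in Ach2 only Cd68 had counts, up to 1.63 counts per 10000 in a cell. The glial sum had a median of 23.5 in the 12 cholinergic cells with a Runx1 count, against 36.5 in the 4 without and 5.68 in noradrenergic cells. With the glial level as a covariate, an alternative chosen after seeing the data, the log2 fold change of Runx1 was 2.92 (adjusted p = 9.789e-05 in edgeR).

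Other sensory genes moved in both directions between cholinergic and noradrenergic cells. Of 9 tested sensory factors Runx1 and Shox2, a homeodomain factor, rose and Isl1 fell (-0.80, SE 0.22, adjusted p = 0.008458 in edgeR). Calca, Calcb, Cartpt and Sst rose among 9 tested peptides and Gal, which encodes galanin, fell. Of 7 growth factor receptors Ntrk2, Gfra2 and Ret rose, and Gfra3, the artemin co-receptor, fell, with 0 counts in 16 cholinergic cells, against 252 counts in 97 of 193 noradrenergic cells. EdgeR called 0 of 6 tested nociceptor channels, 0 of them with an unadjusted p under 0.05. In Glutamatergic cells Gfra3 had 14 counts in 3 of 4 and rose above noradrenergic cells by 2.16 (SE 0.59, adjusted p = 0.01624 in edgeR).

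Adcyap1 followed Runx1 in cholinergic counts, and all 10 were in Ach1, while Scn10a had 1 count in an Ach1 cell and P2rx3 had 2 in an Ach2 cell. Its counts in Ach1 were 5 in the P30 female cell, 3 in the P29 male cell and 1 each in a P31 female and the P33 female cell, and 4 of 8 Ach1 cells held none. Ach2 had 0 counts in 8 cells, which sets no limit on low expression there, and the pooled level in Ach1 was at least 2.63-fold higher. The log2 fold change of 5.58 in Ach1 over Ach2 (SE 1.79, unadjusted p = 0.001763) did not pass, with an adjusted p = 0.3739 in edgeR, beside 0.138% of all genes called. The pooled cholinergic level was 10.4-fold the noradrenergic level (counting interval 4.08 to 25.7), higher in 4 and lower in 1 of 7 collections, and the edgeR fit, which weighs Ach1 and the empty Ach2 equally, gave an adjusted p of 1.

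**Figure D4:**
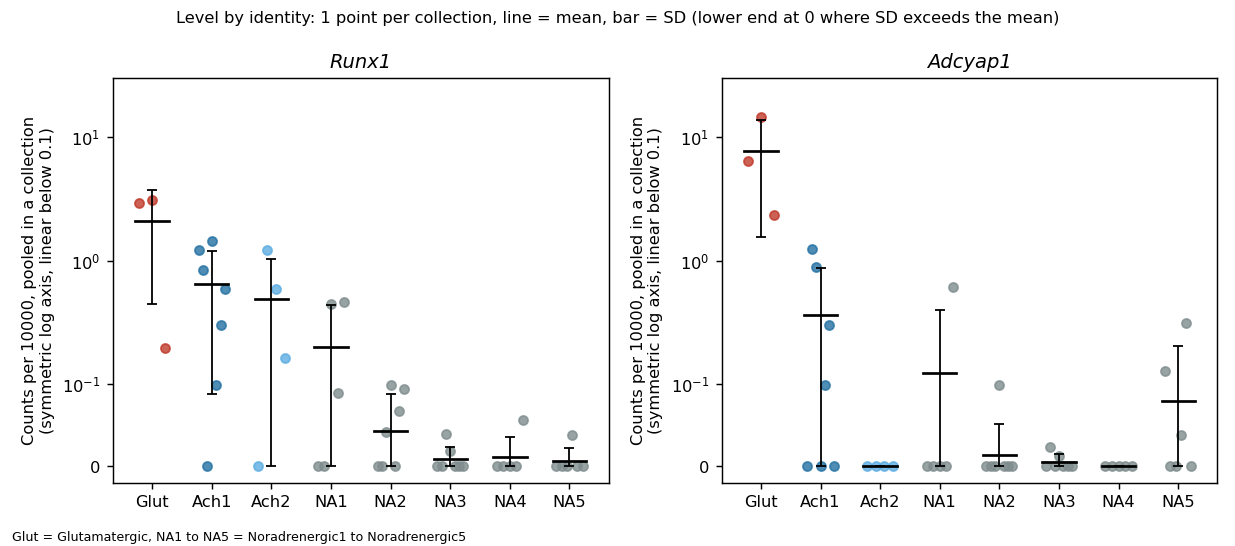
Levels of Runx1 (left) and Adcyap1 (right) in counts per 10000 by identity, 1 point per collection, with the mean (line) and SD (bar) on a symmetric log axis that is linear below 0.1. Runx1 averaged 0.641 in Ach1 and 0.489 in Ach2, against 0.00623 to 0.198 in the noradrenergic identities, and Adcyap1 was at 0 in every Ach2 and Noradrenergic4 library.

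Ordered by mean level over collections, Runx1 ran from Glutamatergic (2.08 ± 1.63 counts per 10000) through Ach1 (0.641 ± 0.553), Ach2 (0.489 ± 0.540), Noradrenergic1 (0.198 ± 0.234), Noradrenergic2 (0.0429 ± 0.0442), Noradrenergic4 (0.0111 ± 0.0249) and Noradrenergic3 (0.00821 ± 0.0152) to Noradrenergic5 (0.00623 ± 0.0153). Each step between neighbours was smaller than the larger of their SDs. Adcyap1 ran from Glutamatergic (7.74 ± 6.19) through Ach1 (0.363 ± 0.505), Noradrenergic1 (0.123 ± 0.275), Noradrenergic5 (0.0795 ± 0.124), Noradrenergic2 (0.0141 ± 0.0373) and Noradrenergic3 (0.00509 ± 0.00926), with Ach2 and Noradrenergic4 at 0. Apart from the step below Glutamatergic, neighbours again lay within their spread.

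P2rx3 followed Glutamatergic cells (0.686 ± 0.906) with Noradrenergic5 (0.0851 ± 0.208), Ach2 (0.0812 ± 0.162) and Noradrenergic3 (0.0378 ± 0.0623), all within 1 SD of their neighbours, and Ach1 was at 0. Scn10a followed Glutamatergic cells (2.57 ± 1.98) with Noradrenergic4 (0.0471 ± 0.105), Noradrenergic5 (0.0256 ± 0.0628) and Ach1 (0.0254 ± 0.0672), and Ach2 and Noradrenergic1 were at 0. Tac1 outside the Glutamatergic cells was counted in Noradrenergic3 (0.0118 ± 0.0313) and Noradrenergic2 (0.00597 ± 0.0158) alone among the named identities.

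Among the noradrenergic identities the tools differed on the 6 genes tested. Each identity was set against the other 4 for the 6 genes tested, and edgeR called 0 of 30, with the smallest adjusted p at 0.1117, while 3 had an unadjusted p under 0.05, DESeq2 called 0 and limma voom called 8. The voom calls were Adcyap1, Runx1 and Slc17a6 in Noradrenergic1, higher, and Adcyap1, Runx1, Scn10a, Slc17a6 and Tac1 in Noradrenergic3, lower. Slc17a6 had 0 counts in all 193 noradrenergic cells, and the edgeR fit put Tac1 and Scn10a in Noradrenergic3 at 1.25 and 0.10, the opposite sign. Of all genes, Noradrenergic1 had 1.39% called, Noradrenergic2 1.64%, Noradrenergic3 1.74%, Noradrenergic4 1.25% and Noradrenergic5 1.41%. The 3 were Adcyap1 in Noradrenergic1 (log2 fold change 3.02, SE 0.99, adjusted p = 0.1117 in edgeR), Runx1 in Noradrenergic1 (2.16, SE 0.85, adjusted p = 0.2808 in edgeR) and Adcyap1 in Noradrenergic5 (1.85, SE 0.80, adjusted p = 0.4165 in edgeR). Noradrenergic1 held 6 counts of Runx1 in 3 of 10 cells and 4 of Adcyap1 in 2 of 10. Noradrenergic5 held 5 counts of Adcyap1, 1 in each of 5 of 23 cells.

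Stray counts outside the Glutamatergic cells were thin. In all, 76 of 294 cells (25.9%) held at least 1 of the 8 genes, with 136 counts among them. Carriers made up 81.3% of cholinergic cells (13 of 16), 22.3% of noradrenergic cells (43 of 193) and 23.5% of Unclassified cells (20 of 85). The cholinergic share was mostly Runx1, with 29 of the 42 counts there, in 12 of the 16 cells. Tac1, Slc17a6, Pou4f1 and Prdm12 had 0 counts in cholinergic cells. The median total was 39460 counts in noradrenergic carriers, against 37180 in noradrenergic cells without any of the genes. The most frequent pair of the 8 genes outside the Glutamatergic cells was Adcyap1 with Runx1, in 5 cells, followed by Adcyap1 with P2rx3 in 3. Pairs with Slc17a6, Pou4f1 or Prdm12 were found in 0 of the 294 cells, whereas Tac1, Adcyap1, Slc17a6 and Scn10a were found together in 4 of 4 Glutamatergic cells.

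Chips with and without a Glutamatergic cell were also compared. On the 4 chips with a Glutamatergic cell, 13 of 81 noradrenergic and Unclassified cells (16.05%) held at least 1 of the 8 genes, against 50 of 197 (25.4%) on the other 20 chips and 32 of 118 (27.1%) on other chips of the same collections. Tac1, which of the 8 genes had the most counts in Glutamatergic cells, was in 1 of 81 cells on these chips and in 3 of 197 cells on the other chips. Calca was in 2 of 278 noradrenergic and Unclassified cells, with 3 counts. The 4 chips differed, with 2 of 21, 5 of 41, 5 of 16 and 1 of 3 cells as carriers, so no direction is read from the pooled share.

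Single cells behind the stray counts were also read. Of the 8 counts of Tac1 outside the Glutamatergic cells, 5 came from 1 Noradrenergic3 cell of the P38 male collection, which held 100 counts of Th, 0 of Calca and 0 of the other 7 genes. The lone Pou4f1 count came from a Noradrenergic3 cell of the P31 female collection with 123 counts of Th and 0 of Calca. P2rx3 in the P11 female collection had 8 of the 17 noradrenergic counts, in 3 of 9 cells, at 0.230 counts per 10000, against 0.0376 in the next collection. For Scn10a, 8 of the 10 noradrenergic counts were in the P31 female collection, which held 85 of the 193 cells.

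Genes whose levels were most like those of the 8 were found by Pearson's r over the 44 libraries, on log2(counts per 10000 + 0.1), for the 6 genes with at least 20 counts. The libraries of a collection share their cells' source, and most values are 0, so r is a description. Nmb came first for Tac1 (r = 0.937), Slc17a6 (0.926) and Scn10a (0.859), followed in each case by Sulf1, an extracellular sulfatase, and BC048546 in either order, at 0.824 to 0.904. Adcyap1 was closest to Kit (0.784), Fgf13 (0.783) and Ldb2 (0.773), which all had counts in 4 of 4 Glutamatergic cells and in 4 to 12 of 16 cholinergic cells. Runx1 was closest to F2rl2 (0.796), which had counts in 12 of 16 cholinergic cells, and Calcb (0.748), and P2rx3 to Zfp78 (0.717).

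On GRCm38 the GENCODE models lie on chromosome 6 (Tac1, 7554879 to 7565834, plus strand), 17 (Adcyap1, 93199017 to 93206537, plus), 7 (Slc17a6, 51622006 to 51671119, plus), 9 (Scn10a, 119608456 to 119719322, minus), 16 (Runx1, 92601466 to 92826149, minus), 14 (Pou4f1, 104461676 to 104467999, minus) and 2 (Prdm12, 31640037 to 31655795, plus). Slc17a6, Runx1 and Prdm12 each overlap 1 annotated gene that was not analysed here. The gene that overlaps Slc17a6 lies on the same strand, so strand would not tell their reads apart. Those that overlap Runx1 and Prdm12 lie on the opposite strand, and with the use of strand unknown their reads may not be told apart.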

How the data were processed

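After enzymatic dissociation cells were caught on microfluidic chips, whose capture sites were checked by eye for lone healthy cells, per the labels' protocols. No doublet caller was run here. The authors deposited a table of whole-number counts for 16892 genes in 298 cells, with 0 columns left without a sample and no 2 columns identical. The genome build was mm10, per the submitters' processing notes, and the aligner, the counting program, the annotation, the use of strand and any collapsing of molecules are not given in the sources used here. Totals per cell ran from 7225 to 81589, which limits genes of a few counts most.

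The 8 genes and the gene lists were chosen with earlier results of these data known. Counts of the named identities were summed by identity and collection into 44 libraries, and the Unclassified cells entered no test. The 11555 genes with 20 or more counts, present in 3 or more libraries, entered a TMM-scaled fit by edgeR 4.0.16 (robust quasi-likelihood, R 4.3.3), with terms for identity and collection. Contrasts weigh identities equally, tests are two-sided, p-values carry the Benjamini-Hochberg adjustment for each comparison, and the SE is the absolute log2 fold change over the square root of F. Collection entered as the block because libraries sharing one deviated together: over 4485 genes and 10 libraries with 5 or more cells, r was 0.140 to 0.200 for 4 such pairs and averaged -0.0343 for 20 other pairs. Deviations were taken from the mean of each identity, so the negative average follows from the positive pairs and adds nothing. The 10 libraries were Noradrenergic2 and Noradrenergic3 only, and the other identities were not covered. The scripts were tested on simulated data.

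Levels are given as the mean and SD over collections. Intervals are exact at 95%, floors are 3 counts, and shares thinned to 7000 counts are expected values that keep every cell. Alternatives were RLE size factors, filterByExpr, no filter, no block, DESeq2 1.42.0, voom from limma 3.58.1, libraries of at least 2 cells and leaving out each collection. Named were all 8 genes, called genes of the lists, and the 3 most similar genes for each gene with at least 20 counts. Gene models are GENCODE M21.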

Additional observations from a re-analysis of the deposited data

Results flagged for a closer look

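In 15 groups of 4 to 10 values the highest or lowest value was compared with the rest, and 5 stood apart. The rule's rate of 1 in 20 groups is for normally distributed values. These values are sparse, often 0, and come from cells or collections of unlike size. The 5 therefore cannot be set against that rate. Scn10a stood at 4.83 counts per 10000 in the P31 female Glutamatergic cell, with the next cell at 1.77. P2rx3 stood at 3.82 in the shallower P29 male Glutamatergic cell, with the next at 0.345. In noradrenergic cells by collection, Tac1 stood at 0.0470 in the P38 male collection, all from 1 cell, with the next at 0.0127. Runx1 stood at 0.442 in the P30 male collection, which held 2 noradrenergic cells, with the next at 0.0564. P2rx3 stood at 0.230 in the P11 female collection, with the next at 0.0376.

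The 85 Unclassified cells, which enter no comparison, held 5 counts of Scn10a in 4 cells, 11 counts of Runx1 in 7 cells and 7 counts of P2rx3 in 6 cells, against 10, 20 and 17 counts in 193 noradrenergic cells. The pooled levels in Unclassified cells were 0.0256, 0.0563 and 0.0358 counts per 10000, against 0.0136, 0.0272 and 0.0231 in noradrenergic cells. These genes were picked because their pooled level was higher in Unclassified cells, with more than 3 counts there. Adcyap1 went the other way, at 0.0102 against 0.0177, as did Pou4f1 with its 1 noradrenergic count. By the mean over collections, of the picked genes only Scn10a stayed higher in Unclassified cells (0.0145 against 0.00657). Runx1 (0.0309 against 0.0594) and P2rx3 (0.0198 against 0.0312) were lower by that measure. The glial list summed to a median of 26.3 in Unclassified cells, against 5.68 in noradrenergic cells, and its part in these counts was not tested.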

How the results depend on the processing

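In Glutamatergic against noradrenergic cells, the 4 to 6 genes tested stayed called under each edgeR setting with at least 2 Glutamatergic libraries, leaving out each collection included. Libraries of at least 2 cells leave 1 Glutamatergic library, which is assumed to vary like the other groups, and say little about stability. DESeq2 gave 5 of the 6 genes no adjusted p against noradrenergic cells and called the other. Against cholinergic cells DESeq2 called 1 of 6, left 4 uncalled and gave 1 no adjusted p. With RLE size factors the share of calls that were higher was 86.4% (61.5% with TMM) in Glutamatergic against noradrenergic cells, 80.2% (64%) against cholinergic cells, 60.7% (47.5%) in cholinergic against noradrenergic cells and 71.9% (84.1%) in Noradrenergic3. The median of all genes was -0.180 and, with RLE, 0.062 against cholinergic cells, and -0.198 and -0.045 in cholinergic against noradrenergic cells.

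Runx1 in Ach1 against Ach2 changed sign with voom, to 0.10, and without the P29 male (0.73) or P30 female collection (0.01), over a range of -1.16 to 0.73, and it was never called. Without the replicate block the counts called were 260 (main 304) for Glutamatergic against noradrenergic cells, 169 (175) against cholinergic cells and 5 (16) for Ach1 against Ach2. With libraries of at least 2 cells the counts were 184 (304), 113 (175), 279 for cholinergic against noradrenergic cells (528) and 242 for Noradrenergic1 (161). With voom they were 775 (304), 7 (16), 391 for Noradrenergic1 (161), 71 for Noradrenergic2 (189), 475 for Noradrenergic3 (201), 77 for Noradrenergic4 (145) and 98 for Noradrenergic5 (163). With filterByExpr, which tests 4387 genes, they were 3 (16), 81 for Noradrenergic2, 81 for Noradrenergic3 and 82 for Noradrenergic5. With DESeq2 they were 100 (175) and 94 for Noradrenergic5.

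Leaving out each collection gave 91 to 360 calls for Glutamatergic against noradrenergic cells (91 without P31 female, 97 without P29 male), 52 to 213 against cholinergic cells (52 without P29 male, 74 without P31 female), 348 to 567 for cholinergic against noradrenergic cells (348 without P29 male) and 5 to 17 for Ach1 against Ach2 (5 without P38 male). The ranges were 90 to 166 for Noradrenergic1, 114 to 205 for Noradrenergic2, 117 to 207 for Noradrenergic3, 87 to 152 for Noradrenergic4 and 56 to 174 for Noradrenergic5. The cause of these changes was not tested. With 4 Glutamatergic cells, Pou4f1, Prdm12 and P2rx3 rest on a few counts each.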

Other observations

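Tlx3, a homeodomain factor of sensory neurons that stayed below the filter, was picked out after its values were seen. It had 13 counts in 8 of 16 cholinergic cells, against 2 counts in 2 of 193 noradrenergic cells, a pooled level 87.8-fold higher with a counting interval from 19.9 to 802. In the 4 Glutamatergic cells it had 3 counts in 2 cells. Piezo2, the channel of touch neurons, had 9 counts in 2 of 4 Glutamatergic cells, the P33 female cell and the shallower P29 male cell, against 3 counts in 3 of 193 noradrenergic cells. Scn11a had 6 counts in 4 of 8 Ach1 cells, against 0 in 8 Ach2 cells.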
